A study of Saccharomyces cerevisiae with 6 samples.

Results

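The genes of the small nuclear RNAs and small nucleolar RNAs of budding yeast were measured on single-colour expression arrays. A gene was a member when a probe set carried it as its only gene symbol and that symbol was SNR followed by a number and at most 1 letter. Of 5656 genes measured by such probe sets, 60 were members: 40 C/D box RNAs, 17 H/ACA box RNAs and 3 spliceosomal RNAs. Where a gene had more than 1 probe set the brightest was used, which concerned the members SNR39B and SNR62. The reference gene table lists 19 further genes of this naming scheme that were not analysed here, among them SNR17B, SNR30 and SNR10. The long form of U5 (SNR7-L) has a hyphen in its symbol and U2 (LSR1) shares its probe sets with another gene, so both fell outside the rule.

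There were 3 arrays of a mutant strain labelled as altered in histone H2B at residues 3 to 32 and 3 arrays of a wild-type strain, numbered as replicates 1 to 3 in each group. In work on such strains the label stands for loss of this stretch of the amino-terminal tail. Both strains were grown in YPD, a rich medium, to mid-log phase at an OD600 of 0.5 to 0.7, and about 20 µg of total RNA was labelled with biotin. The sources used here do not give the strain background or the way H2B is expressed in the strains, and nothing states that the replicates were separate cultures. The p-values therefore measure only the spread between these arrays, which may be technical.

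Small nucleolar RNAs work in the nucleolus on ribosomal RNA. C/D box RNAs base-pair with ribosomal RNA and guide the methyltransferase Nop1 to the riboses it methylates, while H/ACA box RNAs guide the pseudouridine synthase Cbf5. A few, such as U3 and U14, are needed for cleavage of the ribosomal RNA precursor. The spliceosomal RNAs U1, U2, U4, U5 and U6 form the core of the machinery that removes introns. Yeast makes these RNAs from single genes, from clusters that are cut apart after transcription, or from introns of other genes. Mature forms carry no long poly(A) tail, and the sources used here do not say how the labelled RNA was primed.

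The H2B gene HTB1 had signals of 16.1, 19.4 and 15.2 on the mutant arrays, against 1371.8, 1138.4 and 1191.0 on the wild-type arrays. HTB1 thus separated the labelled groups on all 6 arrays, but which part of the gene its probes cover is not given here. Deviations from the group means correlated across genes at 0.52, 0.59 and 0.86 for same-numbered arrays of the 2 groups, and on the rule that each exceed 0.1 the replicate number was taken to pair the arrays. Replicates 1 and 2 were not told apart by number: mutant array 1 correlated at 0.65 with wild-type array 2, above its own pair, and mutant array 2 at 0.51 with wild-type array 1. Arrays numbered 3 correlated at -0.61 to -0.75 with those numbered 1 or 2 in the other group. The block therefore mainly separates replicate 3 from the rest. Median signals were 40.5 and 40 on the mutant and wild-type arrays of replicate 3, against 28.7 to 31 on the other 4. Hybridisation spike controls, RNAs added during the array procedure, averaged 195.6 and 202.7 on the mutant and wild-type arrays of replicate 3, against 682.1 to 899.3 on the other 4. Control probe sets for 25S ribosomal RNA, which also lacks a long poly(A) tail, averaged 682.3, 335.7 and 202.9 on mutant arrays 1, 2 and 3, against 142.9, 216.9 and 91.5 on the wild-type arrays. Those for 18S ribosomal RNA averaged 384.9, 168.8 and 34.5 on the mutant arrays, against 88.5, 124.4 and 29.3 on the wild-type arrays. Both were higher on the mutant array of each pair. All differences below are mutant minus wild type, on the scale of log2 of the signal plus an offset of 2.7.

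SNR50, SNR5 and SNR14 were higher in the mutant, by 0.65, 0.48 and 0.59 on the log2 scale, and they come from the 3 different classes. These calls were made by limma with the replicate number as a block. With replicate 3 as 1 batch and replicates 1 and 2 as the other, the same 3 passed (limma adjusted p = 0.0182, 0.034 and 0.0406). With the group only, limma called 0 members in either direction, and 3 members had an unadjusted p under 0.05. Of the 60 members, 39 were bright enough to be tested and 21 lay under the level filter. With the block, 3 of the 39 rose and 0 fell, where 40 of 4525 tested genes (0.884%) rose and 63 (1.39%) fell. An unadjusted limma p under 0.05 with the block was found for 7 of the 39 higher and 2 lower. Of the 4525 genes, 234 (5.17%) were higher and 547 (12.1%) lower at that level. With the group only, 0 of 4525 genes (0%) rose and 1 (0.0221%) fell, and 113 (2.5%) had an unadjusted p under 0.05. Over the 7 fits with the replicate block, limma adjusted p ran from 0.000562 to 0.191 for SNR50, from 0.00116 to 0.269 for SNR5 and from 0.00169 to 0.265 for SNR14. The lowest of each came with scaling to a common median, at log2 differences of 0.69, 0.52 and 0.63. Those are close to the differences with the block alone.

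SNR50 is a C/D box RNA that guides a ribose methylation in 25S ribosomal RNA. Its signal was 32.8, 36.1 and 44.9 on mutant arrays 1, 2 and 3, against 20.4, 20.8 and 28.5 on the wild-type arrays. All 3 mutant arrays lay above all wild-type arrays. The means were 37.9 ± 6.26 in the mutant and 23.2 ± 4.57 in wild type (SD, n = 3 each), with log2 differences of 0.62, 0.72 and 0.61 in pairs 1, 2 and 3. The limma adjusted p for SNR50 was 0.0254 with the block (SE 0.14) and 1 with the group only.

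SNR5 is an H/ACA box RNA that guides pseudouridylation of 25S ribosomal RNA. Its signal was 105.3, 115.6 and 125.7 on the mutant arrays, against 74, 87 and 84.3 on the wild-type arrays, again without overlap. The means were 115 ± 10.2 in the mutant and 81.8 ± 6.86 in wild type (SD, n = 3 each). The pairs differed by 0.49, 0.40 and 0.56, and the limma adjusted p for SNR5 was 0.0314 with the block (SE 0.11) and 1 with the group only.

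SNR14 encodes U4, the spliceosomal RNA that pairs with U6 and holds it inactive until the spliceosome is activated. Its signal was 50.4, 38.5 and 35.6 on the mutant arrays, against 31.4, 27.3 and 21.2 on the wild-type arrays. The groups did not overlap, and within each group array 3 was the lowest, unlike SNR50. The means were 41.5 ± 7.84 in the mutant and 26.6 ± 5.13 in wild type (SD, n = 3 each). The pairs differed by 0.64, 0.46 and 0.68, and the limma adjusted p for SNR14 was 0.0392 with the block (SE 0.14) and 1 with the group only.

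SNR8, an H/ACA box RNA that also acts on 25S ribosomal RNA, lay just beyond the threshold. It had 79.8, 95.2 and 95.2 on the mutant arrays, against 47.6, 83 and 66.7 on the wild-type arrays. The groups overlapped through wild-type array 2, and the limma adjusted p for SNR8 was 0.0696 with the block (log2 0.47) and 1 with the group only. With the block and either quantile normalization or scaling to a common median, SNR8 passed as well (limma adjusted p = 0.011 and 0.00384). Its log2 differences there were 0.52 and 0.5, so the p-value moved more than the difference.

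The block calls depended on which pairs were included, and that of SNR14 also on the level filter (limma adjusted p = 0.0527 with the block and no filter). SNR50, SNR5 and SNR14 all passed without pair 1 (adjusted p = 0.00917, 0.0172 and 0.0416), and none of them passed without pair 2 (0.171, 0.142 and 0.143) or without pair 3 (0.191, 0.269 and 0.265). Their log2 differences in these fits lay between 0.61 and 0.67 for SNR50, 0.45 and 0.53 for SNR5, and 0.55 and 0.66 for SNR14. Over all genes tested these fits called 7 to 82 genes higher and 6 to 156 lower, the most without pair 1. RDN25-1, the 25S ribosomal RNA, had a limma adjusted p of 2.85e-37 without pair 1 and 0.0319 without pair 3, at log2 1.39 and 1.23. The passes without pair 1 therefore do not show that pairs 2 and 3 agree better. The 25S control probe sets were also higher in the mutant in each pair, and their part in the 3 calls was not tested.

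**Figure D1:**
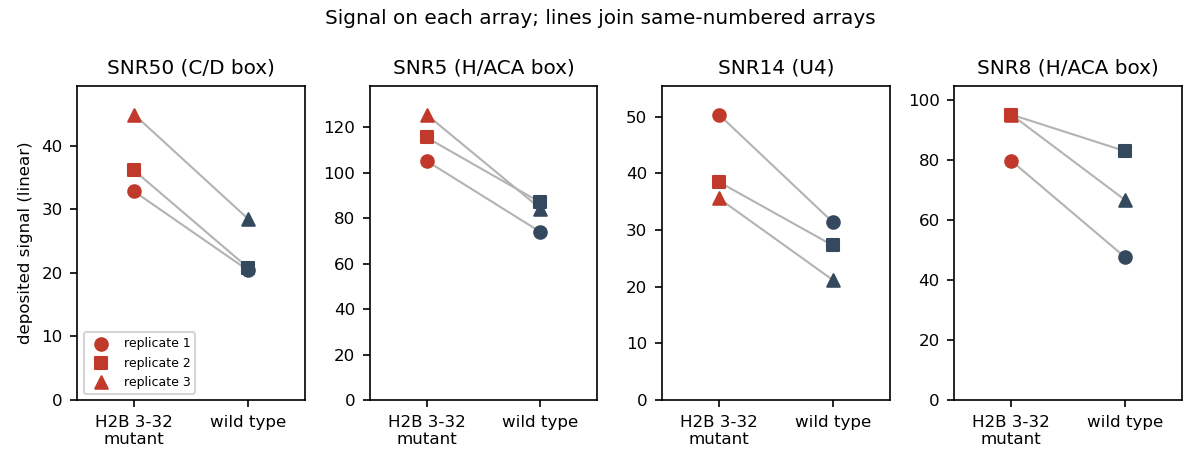
Deposited signal (linear axis from 0) of SNR50, SNR5, SNR14 and SNR8 on the 3 mutant arrays (left, red) and the 3 wild-type arrays (right, dark), with a marker shape for each replicate and a line joining each same-numbered pair. Every line slopes down to the right, and the groups overlap only for SNR8, where wild-type array 2 at 83 lies above mutant array 1 at 79.8.

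Across all 60 members, the changes were small and leaned upward. The median difference was 0.09, against -0.05 over all 5656 genes measured and -0.06 over those tested. A positive difference was found for 41 members (68.3%), where 40.2% of all genes measured had one. Among the 21 members under the level filter 14 were positive (66.7%, against 53.2% of all genes under the filter), and among the 39 over it 27 were (69.2%, against 37% of all genes tested). The difference was positive in all 3 pairs for 15 members, where 12.6% of all genes were, and negative in all 3 pairs for 3 members, where 24.6% of all genes were. The groups did not overlap for 5 members with the mutant higher (3.13% of all genes) and for 1 member with the mutant lower (4.54% of all genes). The upward lean was not seen in every pair: the members' median was -0.02 in pair 1, 0.14 in pair 2 and 0.18 in pair 3. Over all genes measured the pair medians were -0.05, -0.07 and -0.02. With mutant replicate 3 left out, the members' median was 0 and that of all genes -0.15. Wild-type replicate 3 stays in that fit, which leaves the groups unbalanced for replicate 3. With the block and 1 pair left out, the members' median lay between 0.04 and 0.14, and that of all genes between -0.06 and -0.03.

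**Figure D2:**
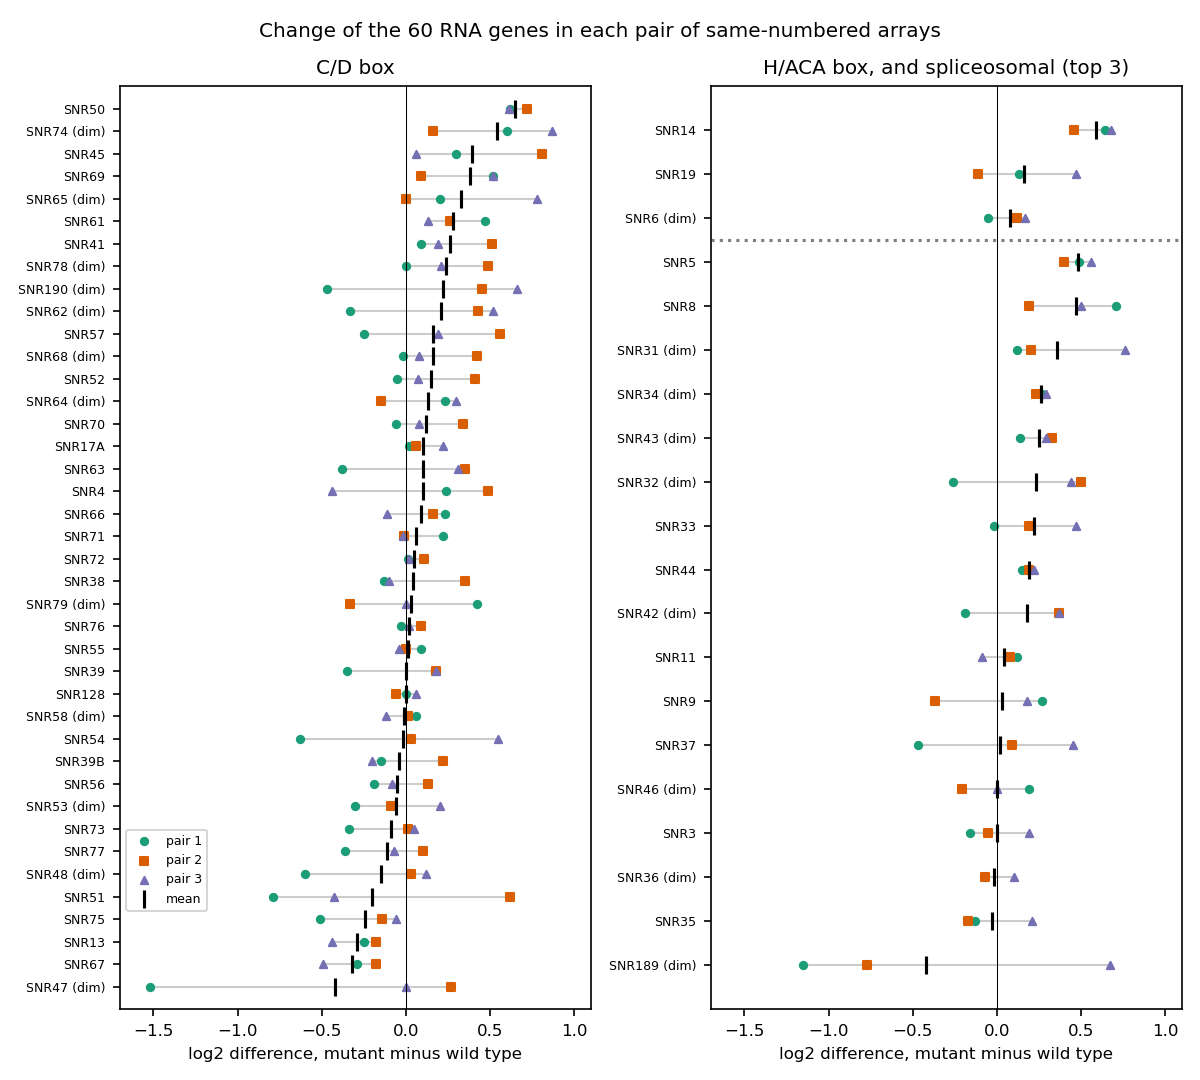
Log2 difference, mutant minus wild type, of each of the 60 members in pairs 1, 2 and 3 (coloured markers) with the mean of the pairs (black tick), for C/D box genes (left) and for H/ACA box genes with the 3 spliceosomal genes above the dotted line (right). Members under the level filter are marked as dim, and most grey ranges cross or touch 0. Those of 15 members, SNR50, SNR5 and SNR14 among them, lie wholly above it, and those of 3 members wholly below.

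Among the 40 C/D box RNAs the median difference was 0.06, with -0.04, 0.14 and 0.07 in pairs 1, 2 and 3. Without mutant replicate 3, but with wild-type replicate 3 kept, the median turned to -0.04. With the block and 1 pair left out it lay between 0.01 and 0.11. With the block 1 of the 28 tested rose, SNR50, and 0 fell. The differences ran from -0.42 for the dim SNR47 to 0.65 for SNR50, and 15 of the 40 lay within 0.1 of 0. For SNR39B, at -0.04, the 2 probe sets differed. The dimmer probe set, not used, was higher in the mutant in each pair, with 26.6, 31.5 and 53.1 against 25.7, 21.0 and 37.4 in wild type. The probe sets used for 4 members, SNR39B, SNR47, SNR57 and SNR62, carry a mark in their names.

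The next largest positive C/D box differences belonged to SNR74, SNR45 and SNR69. SNR74, which guides a methylation in 18S ribosomal RNA, had 17.4, 14.4 and 22.1 on the mutant arrays, against 10.6, 12.6 and 10.9 on the wild-type arrays. Its groups did not overlap, but its signal was under the filter and it was not tested in either fit with the filter. SNR45, which helps to guide acetylation of 18S ribosomal RNA, had 23.4, 25.5 and 33 in the mutant, against 18.5, 13.4 and 31.5 in wild type (log2 0.39, limma adjusted p = 0.242 with the block). Its difference came mostly from pair 2, at 0.81. SNR69, which acts on 25S ribosomal RNA, had 49.2, 60.1 and 65.7 in the mutant, against 33.5, 56.5 and 44.9 in wild type (log2 0.38, adjusted p = 0.167 with the block). Neither SNR45 nor SNR69 separated the groups.

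On the other side, SNR67, SNR13 and SNR75 were below wild type in all 3 pairs. SNR67, a guide for 25S ribosomal RNA, had 190.5, 223.3 and 162.9 on the mutant arrays, against 234.1, 253.9 and 229.8 on the wild-type arrays, and was the 1 member whose mutant arrays all lay below wild type. Its log2 difference was -0.32, with a limma adjusted p of 0.104 with the block. SNR13, also a guide for 25S ribosomal RNA, had 244.7, 285.1 and 131.6 in the mutant, against 291.3, 322.4 and 179.5 in wild type (log2 -0.29, adjusted p = 0.14 with the block). In both groups array 3 of SNR13 was far below arrays 1 and 2. Without mutant replicate 3, but with wild-type replicate 3 kept, the difference of SNR13 turned to 0.04. With the block and 1 pair left out it lay between -0.34 and -0.21. SNR75 had 79.2, 111.3 and 158.9 in the mutant, against 114.1, 123 and 165.4 in wild type (log2 -0.24, adjusted p = 0.298 with the block).

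The C/D box RNAs needed for cleavage of the precursor showed small differences. U14 (SNR128) had 112.4, 134 and 162 on the mutant arrays, against 112.4, 140.1 and 155.2 on the wild-type arrays, with means of 136 ± 24.9 in the mutant and 136 ± 21.7 in wild type (SD, n = 3 each). U3, measured by SNR17A, had 54.1, 66 and 49.1 in the mutant, against 53.4, 63.1 and 41.7 in wild type (log2 0.10, adjusted p = 0.717 with the block). A second, near-identical U3 gene is known, so the SNR17A probe set may not tell the copies apart. SNR4, which acts with SNR45 in 18S acetylation, had 125.1, 118.7 and 121.3 in the mutant, against 105.5, 83.9 and 165.6 in wild type. Its mutant arrays lay close together inside the wide wild-type range.

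Several C/D box genes lie next to each other on 1 strand in the R64 gene table: 17 members fall in 5 such clusters. In the cluster of 7 that runs from SNR78 to SNR72, the log2 differences ranged from -0.24 to 0.54 with a median of 0.02, and 4 were positive and 3 negative. SNR77, a guide for 18S ribosomal RNA, had 349.3, 430 and 493.5 on the mutant arrays, against 448.2, 400.9 and 519.7 on the wild-type arrays. SNR72, a guide for 25S ribosomal RNA, had 111.3, 133.6 and 172.9 in the mutant, against 110.3, 123.8 and 170.3 in wild type. SNR78 at the other end of the cluster was near background, with 6.5, 4.9 and 5.3 in the mutant, against 6.5, 2.7 and 4.2 in wild type. Signals of different probe sets do not rank the RNAs, since probe sets bind unequally, but within the cluster all genes other than SNR74 had overlapping groups.

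**Figure D3:**
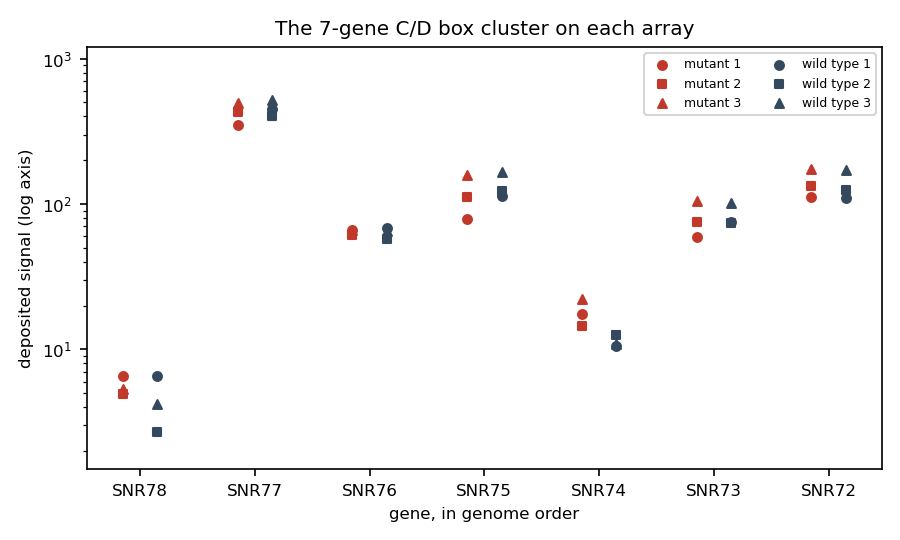
Deposited signal (log axis) of the 7 adjacent C/D box genes in genome order on the 3 mutant arrays (red, left of each pair of columns) and the 3 wild-type arrays (dark, right), with a marker shape per replicate. The groups overlap for each gene except SNR74, whose lowest mutant signal, 14.4, is above the highest wild-type signal, 12.6.

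In the cluster of SNR51, SNR70 and SNR41 the differences ran from -0.20 to 0.26. SNR70, which guides a methylation in 18S ribosomal RNA, had 167.2, 196.9 and 178 in the mutant, against 175, 155.3 and 168.3 in wild type. SNR51 varied widely within each group, with 91.8, 106.4 and 185.9 in the mutant, against 160.5, 68.5 and 250.7 in wild type, and its pairs differed in sign. The SNR61, SNR55 and SNR57 cluster had 3 positive differences, from 0.01 to 0.28, and SNR67 and SNR53 had 2 negative ones, -0.32 and -0.06. SNR190, which is cut from the same precursor as U14, was near background at 0.7, 2.5 and 5.2 in the mutant, against 2, 1.1 and 2.3 in wild type.

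The 17 H/ACA box RNAs had a median difference of 0.18, with 0.12, 0.19 and 0.29 in pairs 1, 2 and 3, and 12 were positive and 5 negative. Of the 9 tested, SNR5 rose with the block and 0 fell. Without mutant replicate 3 the H/ACA median was -0.01, without wild-type replicate 2 it was 0.09, and with the larger offset of 16 it was 0.07. The first of these keeps wild-type replicate 3, which leaves the groups unbalanced for replicate 3. With the block and 1 pair left out the H/ACA median lay between 0.09 and 0.26. The difference between this class and the C/D box class was not tested.

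SNR44, an H/ACA box RNA for which signals were 232.8, 289 and 408.3 on the mutant arrays, against 209.5, 253.2 and 351.2 on the wild-type arrays, was higher in each pair by 0.15, 0.19 and 0.22. The spread between arrays of 1 group was larger than these differences, and its limma adjusted p was 0.312 with the block. SNR33, a guide for 25S ribosomal RNA, had 43.1, 44.2 and 83.1 in the mutant, against 43.6, 38.4 and 59.2 in wild type (log2 0.22, adjusted p = 0.436 with the block). Without mutant replicate 3, but with wild-type replicate 3 kept, the differences of SNR44 and SNR33 turned to -0.03 and -0.08. With the block and 1 pair left out they stayed positive, between 0.17 and 0.2 for SNR44 and between 0.09 and 0.33 for SNR33. SNR11 had 129.2, 111.1 and 74.4 in the mutant, against 118.7, 104.7 and 79.1 in wild type (log2 0.04, adjusted p = 0.89 with the block). SNR3 had 28.6, 39.9 and 33.9 in the mutant, against 32.3, 41.3 and 29.3 in wild type, with means of 34.1 ± 5.65 in the mutant and 34.3 ± 6.25 in wild type (SD, n = 3 each).

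Of the 8 H/ACA box RNAs under the filter, SNR34 differed alike in the 3 pairs. It had 16.2, 18.4 and 18.1 on the mutant arrays, against 13, 15.3 and 14.3 on the wild-type arrays, without overlap and with log2 differences of 0.27, 0.23 and 0.29. SNR31 was higher in each pair too, with 11.9, 18.3 and 14.1 in the mutant, against 10.7, 15.6 and 7.2 in wild type. SNR189 went the other way in pairs 1 and 2, with 1.4, 3.5 and 14.2 in the mutant, against 6.4, 7.9 and 7.9 in wild type. Signals this low are near background, and none of these 3 genes was tested in fits with the filter.

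Of the other spliceosomal RNAs, U1 (SNR19), which recognises the start of the intron, had 19.7, 19.1 and 28.6 on the mutant arrays, against 17.7, 20.9 and 19.9 on the wild-type arrays. Its log2 difference was 0.16 (limma adjusted p = 0.647 with the block) and was carried by pair 3 at 0.47. Without mutant replicate 3, but with wild-type replicate 3 kept, it was 0. With the block and 1 pair left out it lay between 0.01 and 0.3. U6 (SNR6), the partner of U4 that lies at the catalytic centre, was under the filter with 10.4, 16.2 and 14.6 in the mutant, against 10.9, 14.7 and 12.7 in wild type. The long form of U5, outside the rule, had 9.7, 12.3 and 10.5 in the mutant, against 7.7, 7 and 9.1 in wild type. The groups did not overlap for U5, but its signals lay under the filter level near 18.8 and it was not tested. U2, also outside the rule, was near background in both probe sets that it shares. They had 0.9, 1.1 and 1.0 in the mutant, against 1.5, 0.8 and 4.8 in wild type, and 0.5, 0.3 and 1.3, against 0.4, 0.2 and 2.7. Of the 3 spliceosomal members under the rule, U4 had groups apart, and U1 and U6 did not.

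Introns of protein genes encode 4 members, whose hosts were also measured. The members differed by -0.02 to 0.19, with a median of 0.02. SNR44 lies in RPS22B, a gene of the small ribosomal subunit that had 1077, 908.2 and 1428.1 in the mutant, against 1279.5, 1253.3 and 1480.9 in wild type. RPS22B was thus lower in the mutant in each pair (log2 -0.25, limma adjusted p = 0.242 with the block), while SNR44 was higher in each pair. SNR54 had 23.2, 30.4 and 52.3 in the mutant, against 37.4, 29.8 and 34.9 in wild type, and its host IMD4, an IMP dehydrogenase gene, was lower in each pair (log2 -0.24, adjusted p = 0.229 with the block). SNR38 differed by 0.04 and its host TEF4, a translation elongation factor gene, by -0.12. SNR39 differed by less than 0.01 and its host RPL7A, a gene of the large ribosomal subunit, by 0.04. None of the 4 hosts passed in either fit, and the probe sets of RPS22B and RPL7A have names that mark incomplete or shared probes.

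Array 3 stood apart from arrays 1 and 2 of its own group for some members. In both groups array 3 was above the mean of arrays 1 and 2 for 46 of 60 members, where 65.6% of all genes were. It was at least 2-fold above in both groups for 3 members, where 3.59% of all genes were, and at least 2-fold below for 0 members, where 0.725% were. These 3, all C/D box genes, were SNR61, SNR48 and SNR62. SNR61 had 40.9, 37.8 and 145.7 on the mutant arrays, against 28.8, 31.2 and 133 on the wild-type arrays. SNR48, under the level filter, had 7.6, 12.9 and 48.2 in the mutant, against 12.9, 12.6 and 44.1 in wild type. SNR62, also under the filter, had 0.8, 3.9 and 21.6 in the mutant, against 1.7, 2.2 and 14.2 in wild type. Both of its 2 probe sets were highest on array 3, but they target the same RNA, carry marks in their names and are not independent. The hybridisation spike controls were low on both arrays of replicate 3, and their part in the array 3 differences was not tested. For SNR61, SNR48 and SNR62 the SD within a group exceeded the difference between the groups. Per its label, wild-type array 3 also served as wild type for further H2B mutants.

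**Figure D4:**
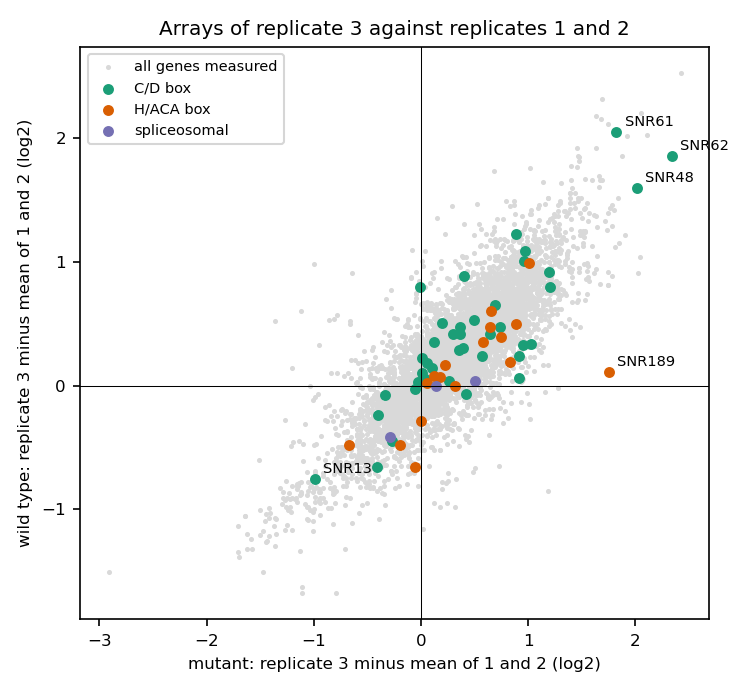
Log2 signal on array 3 minus the mean of arrays 1 and 2, in the mutant (horizontal axis) and in wild type (vertical axis), for all genes measured (grey) and the members by class (coloured). Members follow the diagonal band of all genes, with SNR61, SNR48 and SNR62 at the upper right and SNR189 below the band.

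Among other stable non-coding RNAs, 6 of the 10 listed genes were measured. With the block 1 rose and 0 fell, and all 6 differences were positive (median 0.39). RDN25-1, the 25S ribosomal RNA, had 1154.1, 784.9 and 867.2 on the mutant arrays, against 385.7, 424.8 and 231.6 on the wild-type arrays (log2 1.45, limma adjusted p = 9.1e-05 with the block and 0.442 with the group only). RDN18-1, the 18S ribosomal RNA, had 178.6, 22.1 and 6.2 in the mutant, against 16.9, 17.1 and 4.2 in wild type, so its difference lay mostly in pair 1. Its mean log2 level, 4.45, was just over the filter at 4.43, and its wild-type signals all lay under the filter level near 18.8. Without mutant array 1 it was not tested, so any pass of RDN18-1 rests on that array. RDN37-1, annotated as the ribosomal RNA precursor, had 1362.6, 1362.6 and 511.7 in the mutant, against 1116.1, 1270.3 and 580.4 in wild type. RDN37-1 differed by 0.29, 0.10 and -0.18 in pairs 1, 2 and 3 (log2 0.07, limma adjusted p = 0.786 with the block). These values come from the brightest of its 7 probe sets, whose name marks shared probes, as do those used for RDN25-1 and RDN18-1. Probe positions are not given, so the RDN37-1 signal may not be specific to the precursor. RDN5-1, the 5S ribosomal RNA, differed by 0.56, with 1.36 in pair 1 (adjusted p = 0.109 with the block). RDN18-1 and RDN5-1 passed with the block and either quantile normalization or scaling to a common median. With that scaling RDN18-1 had a limma adjusted p of 1.82e-13, though its pairs differed by 3.21, 0.32 and 0.37. RDN25-1 moved from 9.1e-05 to 2.51e-34 while its log2 difference moved from 1.45 to 1.49. A pass in these settings therefore does not show that the pairs of a gene agree, and the cause of the smaller p-values was not tested. RPR1, the RNA of RNase P, differed by 0.21 and TLC1, the telomerase RNA, by 0.01, and neither passed. Ribosomal RNA probe sets may share signal between repeat copies. In pairs 1, 2 and 3 RDN25-1 differed by 1.57, 0.88 and 1.89.

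The genes of proteins that bind, assemble and process these RNAs were called in neither direction by the group-only fit or the replicate block alone. Over 8 lists, 86 of 88 genes were measured and 80 tested, and 0 passed in either fit (38 positive, 48 negative, median -0.03). An unadjusted limma p under 0.05 was found for 5 of the 80 with the block and for 0 with the group only. Over all 4525 genes tested the block gave 234 higher (5.17%) and 547 lower (12.1%), and the group only gave 113 (2.5%). The C/D box core proteins had a median of -0.04 over 4 genes, with NOP56 at 0.13 and SNU13 at -0.09. The H/ACA box core proteins had a median of -0.07 over 3 genes, with NHP2 at -0.08 and the pseudouridine synthase gene CBF5 at -0.07. Among 11 assembly factors TAH1, a cofactor of the Hsp90 chaperone, had the smallest p, with 124.9, 145.9 and 197.6 in the mutant, against 95.7, 107.8 and 166.4 in wild type (log2 0.35, limma adjusted p = 0.0845 with the block), and HIT1 had -0.26. With the block and either quantile normalization or scaling to a common median, TAH1 passed (limma adjusted p = 0.0438 and 0.0231). Its log2 differences there were 0.38 and 0.39. Leaving out wild-type replicate 3 turned NOP56 to -0.12, HIT1 to 0.01 and NHP2 to 0.02. Leaving out mutant replicate 3 turned SNU13 to 0.07 and CBF5 to 0.01. Both settings leave the groups unbalanced for replicate 3.

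Of 18 tested processing and decay factors, PCF11 of transcription termination had 0.33 and RNT1, the RNase that cuts many of these precursors, -0.21 (limma adjusted p = 0.254 and 0.328 with the block). Among 14 Sm and Lsm ring genes SMX2 had -0.30 and LSM6 0.27. Proteins of the U1 particle included YHC1 at -0.47 and NAM8 at 0.33 (limma adjusted p = 0.193 and 0.254 with the block). The YHC1 pairs differed in sign, at -0.65, -0.82 and 0.07, and its signals on mutant arrays 1 and 2, 16.4 and 14.1, lay under the filter level near 18.8. In the particle that holds U4, PRP31 had 0.27 and SNU66 -0.27 (adjusted p = 0.309 and 0.382 with the block), and that list's median was -0.09. For U3 the list's median was 0.02, with UTP7 at -0.18 and IMP3 at -0.13.

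**Figure D5:**
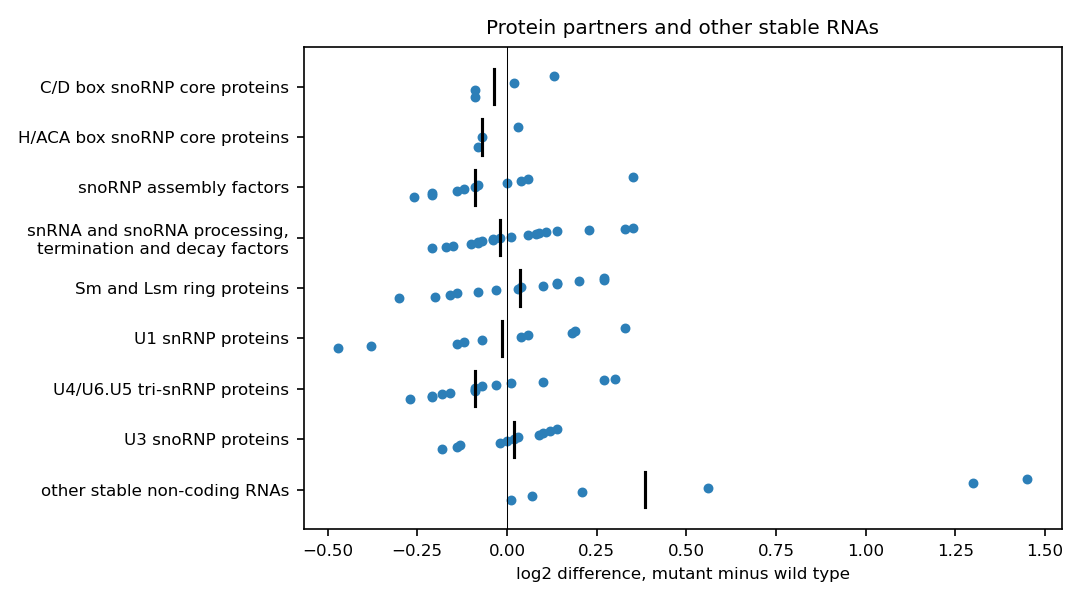
Log2 difference, mutant minus wild type, of each measured gene in 8 lists of protein partners and 1 list of other stable RNAs (points), with each list's median (black line). The protein lists centre between -0.09 and 0.04, while the other stable RNAs have a median of 0.39 and reach 1.45 at RDN25-1.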

How the data were processed

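The authors deposited a linear intensity per probe set for 6 single-colour arrays; MAS5 is the tool named in the submitters' processing notes. The sources used here give no version, settings, detection calls or probe positions. The 2% trimmed means of the columns lay between 125.1 and 125.2, so values were used as deposited. The 9335 probe sets held 60 controls, which were dropped; of the rest 6504 had 1 gene symbol, 328 several and 2443 none in the platform's gene table. Symbols were updated through R64 (5656 of 5656 genes found).

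After adding 2.7 (the 10th percentile of non-control values) and taking log2, genes under the 20th percentile of mean level, a mean signal near 18.8, were not tested. The other 4525 were fitted with limma 3.58.1 in R 4.3.3 (lmFit, eBayes with trend), two-sided, with Benjamini-Hochberg adjustment over all genes tested and a threshold of 0.05. The model held the group only, with the replicate number as a block as the alternative. The labels number replicates 1 to 3 in both groups, and the correlations of deviations given above met the rule for pairing. Meeting that rule does not show that the numbers pair replicates 1 and 2, which were not told apart. Members, classes and lists were chosen with earlier results of these data known. Members called in either fit, up to 6 of the highest level and up to 4 of the largest change per class, and the 2 smallest p per protein list are named with values; any other gene was picked with its values known. The steps were also run on simulated data in which same-numbered arrays of the 2 groups shared an effect, as the block assumes. That run cannot check whether the numbers pair the real arrays. The number of arrays limits the precision.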

Additional observations from a re-analysis of the deposited data

How the results depend on the processing

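With the group only, limma called 0 members in either direction in the reported fit and under each alternative without a block: quantile normalization, scaling to a common median, both other offsets, no filter, a stricter filter, averaged or unmarked probe sets, no variance trend and each array left out. SNR50 and SNR14 lay under the stricter filter and were not tested there. The replicate block called 3 members and RDN25-1 and changed no other call among the members and linked lists. The cause of the changes listed here was not tested. With the replicate block 40 genes rose and 63 fell, with 3 members and 1 gene of the linked lists among the rises. With replicate 3 as a batch block 45 rose and 74 fell, again with 3 members and 1 linked-list gene. The replicate block with no filter gave 36 and 43, with 2 members (SNR14 lost, limma adjusted p = 0.0527) and 1 linked-list gene. With quantile normalization it gave 86 and 95, and with scaling to a common median 101 and 115, each with 4 members (SNR8 added) and 4 linked-list genes (RDN25-1, RDN18-1, RDN5-1 and TAH1). Without pair 1 the block gave 82 and 156, with 3 members and 2 linked-list genes (RDN25-1 and SNU114); without pair 2, 13 and 17, and without pair 3, 7 and 6, each with 0 members and 1 linked-list gene. Quantile normalization with the group only called 1 gene higher, and leaving out single arrays gave 0 to 1.

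Class medians moved when single arrays were left out. Leaving out 1 array of replicate 3 keeps array 3 of the other group. The groups are then unbalanced for replicate 3, here and in the next paragraph. With 1 array left out the medians lay between -0.04 and 0.21 for C/D box genes, -0.01 and 0.21 for H/ACA box genes, and -0.07 and 0.02 for linked-list genes. The H/ACA median was 0.07 with the large offset, and with the block it was 0.26, 0.10 and 0.09 without pairs 1, 2 and 3. The linked-list median was 0.03 with scaling to a common median, with or without the block, and -0.05 with the block and without pair 3.

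Some named genes changed sign or reached 0, including SNR13, HIT1, SNR33 and SNR44, whose reported differences were -0.29, -0.26, 0.22 and 0.19. SNR128 had 0.03 with quantile normalization and 0.04 with scaling to a common median, and SNR3 had 0.03 in both, with or without the block. With the block and a pair left out, SNR11 reached 0, SNR3 0.07 and 0.02, SNR77 0.01, CBF5 0.01, NHP2 0 and SNR128 0.03. With 1 array left out and the group only, values lay between -0.13 and 0.26 for SNR11, -0.13 and 0.13 for SNR128, -0.54 and 0.04 for SNR13, 0 and 0.26 for SNR19, -0.12 and 0.13 for SNR3, -0.08 and 0.38 for SNR33, -0.03 and 0.39 for SNR44, -0.12 and 0.22 for SNR72, -0.23 and 0.02 for SNR77, -0.14 and 0.05 for CBF5, -0.52 and 0.01 for HIT1, -0.15 and 0.02 for NHP2, -0.12 and 0.31 for NOP56, and -0.19 and 0.07 for SNU13. SNR50, SNR5, SNR14 and SNR8 kept a positive difference under each alternative that tested them (0.46 to 0.79, 0.42 to 0.55, 0.43 to 0.71 and 0.26 to 0.65). For SNR50, SNR5 and SNR14, whose groups did not overlap, leaving out an array or a pair could not change the sign. Signals near background limit what can be said of the 21 members under the filter.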
